A study of Mus musculus with 12 samples.

Results

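The Slc25a genes encode the mitochondrial carrier family, and 39 of them were followed across 12 RNA-seq libraries of mouse left ventricle. A gene was included when its symbol was Slc25a followed only by digits and it had 10 or more counts in at least 3 of the 12 libraries. The count table holds 47 such symbols among 49492 rows, and all 39 members also passed the filter that left 15542 genes for testing. The 8 genes under the minimum were Slc25a2, Slc25a18, Slc25a21, Slc25a31, Slc25a41, Slc25a43, Slc25a48 and Slc25a54. Slc25a41 and Slc25a54 had 0 counts in all 12 libraries. Slc25a18, a glutamate carrier, lay just outside the minimum with 2 to 10 counts per library, and Slc25a14 and Slc25a53 lay just inside with 4 to 23 and 7 to 16.

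The design crosses 2 genotypes with 2 treatments, with 3 libraries in each group. WT_NS and WT_TAC are wild-type ventricles, and Alox5ko_NS and Alox5ko_TAC come from mice deficient in Alox5, the gene of arachidonate 5-lipoxygenase. TAC (transverse aortic constriction) narrows the aorta and raises the pressure against which the left ventricle pumps, and NS is the label of the ventricles without it, which the labels do not spell out. The labels give no strain, age, sex or time after surgery, and they name no promoter or cell type for the deletion, which the series text calls cardiac. They also leave unsaid whether the 3 libraries of a group are 3 animals, so the p-values below reflect the spread among libraries, which may be technical.

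Mitochondrial carriers are inner membrane proteins that exchange nucleotides, phosphate, carboxylic acids, amino acids, acylcarnitines, cofactors and metal ions between the mitochondrial matrix and the intermembrane space. In heart muscle the best known are the ADP/ATP carriers, which send ATP to the contractile machinery, the phosphate carrier, which supplies ATP synthase, and the carriers of the malate-aspartate shuttle and of acylcarnitine, which bring reducing equivalents and fatty acids into the matrix. The carriers are made in the cytosol and inserted into the inner membrane by a dedicated import machinery.

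Alox5 checked the genotype labels. It was at 9.56 to 13.9 CPM (counts scaled to library size, with TMM factors) in the 6 wild-type libraries and at 0.934 to 1.46 in the 6 knockout libraries. Library totals ran from 20889431 to 27311196 counts. The 10 cardiomyocyte markers summed to 161627 to 198890 CPM of library total per library, and all 10 were detected in this tissue labelled left ventricle. The lowest sum was in Alox5ko_NS replicate 3, which also had the highest share of mitochondrially encoded counts, 20.7% against 14.1% to 18.1% elsewhere. The markers did not move together in that library. Myh6, Ttn and Ryr2 were at their lowest of the 12 libraries there (84392, 2311 and 1265 CPM of library total). Tnni3, Pln and Mb were at their highest (5641, 1019 and 12886). This library also had the lowest TMM factor of the 12, 0.945. The source of its difference was not tested, and it enters every contrast that uses Alox5ko_NS. For cell markers in general, fewer cells of a type and less RNA per cell cannot be told apart in bulk tissue.

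The promoter sides of 5 of the 6 members called with TAC are shown so that the genes behind the results can be located. That of Slc25a3 is not printed, and for Slc25a22 and Slc25a23, which have several starts, the one farthest upstream was taken. Each run is the 250 bases before a RefSeq transcription start (GRCm38.p6), 5′ to 3′ on the gene's strand, and capitals mark an E-box, CACGTG. Slc25a33 (chr4:149774268-149774517) and Slc25a13 (chr6:6217174-6217423) hold one each.
Slc25a33: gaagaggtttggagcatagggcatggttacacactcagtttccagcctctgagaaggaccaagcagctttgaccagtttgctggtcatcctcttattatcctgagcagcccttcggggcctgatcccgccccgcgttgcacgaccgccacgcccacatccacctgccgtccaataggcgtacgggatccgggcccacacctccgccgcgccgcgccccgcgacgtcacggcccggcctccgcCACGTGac
Slc25a13: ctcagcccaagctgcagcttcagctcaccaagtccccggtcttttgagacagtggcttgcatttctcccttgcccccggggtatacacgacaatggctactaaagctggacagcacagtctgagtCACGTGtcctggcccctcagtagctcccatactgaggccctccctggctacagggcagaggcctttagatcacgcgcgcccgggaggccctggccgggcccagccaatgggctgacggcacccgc
Slc25a34: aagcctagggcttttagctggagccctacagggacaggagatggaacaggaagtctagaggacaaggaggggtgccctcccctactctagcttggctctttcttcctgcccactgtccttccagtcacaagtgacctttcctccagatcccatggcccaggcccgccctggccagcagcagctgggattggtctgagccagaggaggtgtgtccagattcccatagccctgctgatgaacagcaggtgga
Slc25a23: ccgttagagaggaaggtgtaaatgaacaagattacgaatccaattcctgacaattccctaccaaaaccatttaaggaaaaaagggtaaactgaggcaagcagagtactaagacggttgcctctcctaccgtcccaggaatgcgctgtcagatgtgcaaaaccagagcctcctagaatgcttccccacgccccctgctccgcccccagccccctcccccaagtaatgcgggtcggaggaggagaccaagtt
Slc25a22: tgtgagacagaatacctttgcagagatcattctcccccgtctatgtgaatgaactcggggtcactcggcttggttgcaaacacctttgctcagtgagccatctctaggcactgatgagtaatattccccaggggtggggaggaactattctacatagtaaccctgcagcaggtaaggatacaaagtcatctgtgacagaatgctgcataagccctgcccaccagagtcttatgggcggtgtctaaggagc
The Slc25a34 window is chr4:141623835-141624084, that of Slc25a23 is chr17:57059864-57060113 and that of Slc25a22 is chr7:141437875-141438124. All 5 genes lie on the minus strand. RefSeq gave 39 promoters for 30 of the 39 members. CACGTG, its own reverse complement, was in 7 of these (17.9%), belonging to Slc25a1, Slc25a13, Slc25a14, Slc25a15, Slc25a33 and Slc25a36, against 6.02% of 32851 promoters of all genes. On either strand, the cAMP response element TGACGTCA was in 2 (5.13%, against 1.55%), the ETS motif CCGGAAGT in 1, upstream of Slc25a20 (2.56%, against 2.88%), and the NRF1 motif GCGCATGC in 0 (against 2.26%). The estrogen-related receptor motif TCAAGGTCA was likewise in 0, against 0.387%. The median GC content of the members' windows was 58%, and that of all windows was 52.4%. CACGTG and TGACGTCA share the letters ACGT, and a match describes letters only.

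The level of the family was set by 1 gene. By deposited RPKM (reads scaled to gene length and library size), Slc25a4, the main ADP/ATP carrier of heart and skeletal muscle, was at 1262 ± 42.4 in WT_NS (SD, n = 3) and made up 74.1% to 77.4% of the summed RPKM of the family in each library. Slc25a11, the oxoglutarate-malate carrier of the malate-aspartate shuttle, followed at 183 ± 16.1, and Slc25a3, the phosphate carrier, at 60.2 ± 0.561. Slc25a5, the ADP/ATP carrier of dividing and non-muscle cells, was at 25.2 ± 1.38, and Slc25a34, a carrier whose substrate is not settled, at 25.4 ± 0.815. These last 2 did not differ beyond their spread in WT_NS. Slc25a12, the aspartate-glutamate carrier known as aralar, was at 16.4 ± 0.139 RPKM and Slc25a20, the carnitine-acylcarnitine carrier, at 15 ± 0.455. Slc25a13, the second aspartate-glutamate carrier, known as citrin, was at 11.6 ± 0.510 RPKM, Slc25a39, linked to mitochondrial glutathione import, at 10.2 ± 0.866, and Slc25a46, an outer membrane protein of the family, at 9.50 ± 0.428. The other members ranged over 12 libraries from a mean of 6.21 RPKM (Slc25a23) to 0.0584 (Slc25a53). All members together took 0.392% to 0.471% of the counts of a library.

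**Figure D1:**
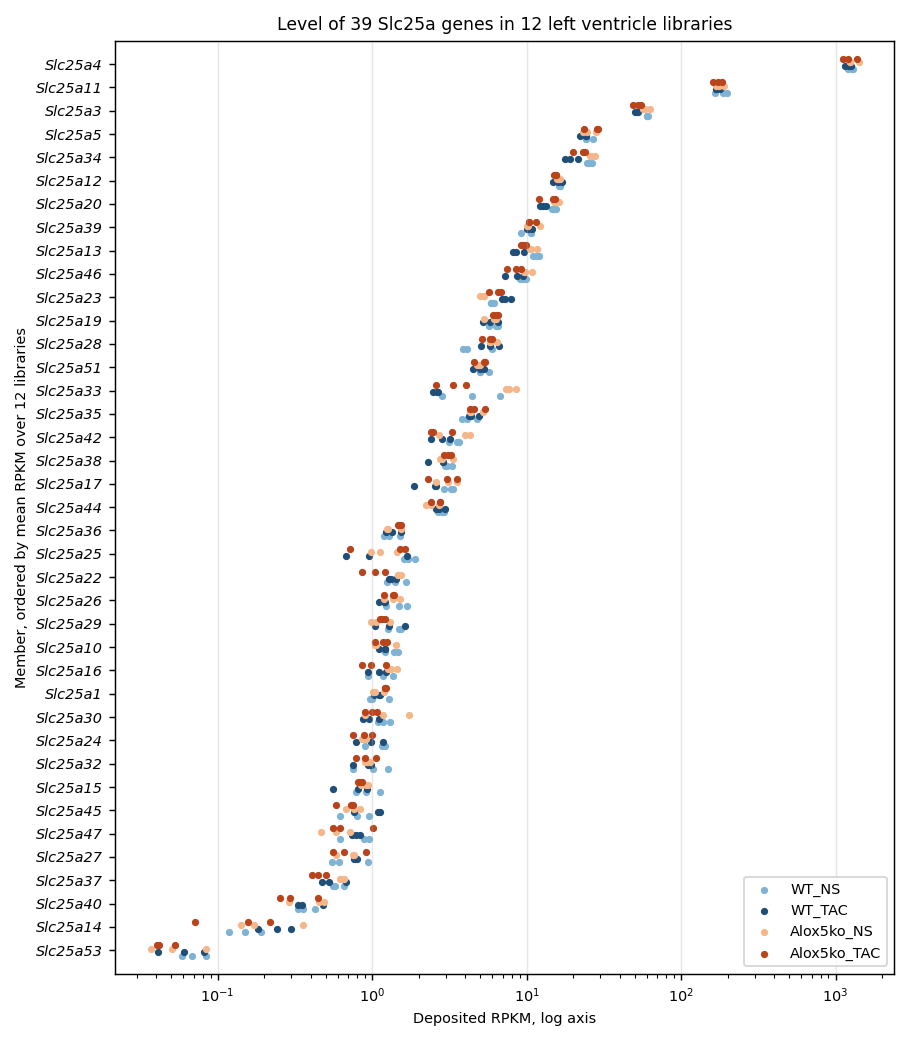
Deposited RPKM of the 39 Slc25a members on a log axis, 1 point per library, colored by group, ordered by the mean over 12 libraries. Slc25a4 stands apart at a mean of 1251 RPKM, and the groups of nearly every gene lie on top of one another.

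The order of the levels depends on the gene length used. The deposited length of Slc25a3 is 5550 bases, while its longest coding transcript in GENCODE M21 has 1612, and with that length its mean over 12 libraries became 192 RPKM in place of 55.9. Slc25a20 moved from 14.3 to 39 RPKM and from rank 7 to rank 4. Slc25a4, Slc25a11 and Slc25a3 kept ranks 1 to 3. This length was chosen after the data had been seen, and differences between groups for 1 gene do not depend on it.

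Several carriers were lower after TAC, most by small amounts. Averaged over both genotypes, 5 of 39 members were called (12.8%), 4 lower and 1 higher, beside 792 of 15542 genes (5.1%). The called members were Slc25a33, Slc25a34, Slc25a13 and Slc25a3, which fell, and Slc25a23, which rose. The log2 fold change was negative for 27 and positive for 12 members, with a median of -0.09, against a median of 0.00 and 49.8% negative over all genes. With RLE factors or DESeq2 the split was 29 negative and 10 positive. Within WT the called member was Slc25a13 (1 of 39, beside 0.766% of all genes), and within Alox5ko they were Slc25a33 and Slc25a22 (2 of 39, beside 1.34%). The mean effect uses the same libraries as the comparisons within each genotype. The 3 libraries of WT_TAC and of WT_NS did not overlap in CPM for 7 members (6 lower, 1 higher), 17.9% of the members beside 18.9% of all genes. In Alox5ko the same held for 11 members (10 lower, 1 higher), 28.2% beside 18%.

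**Figure D2:**
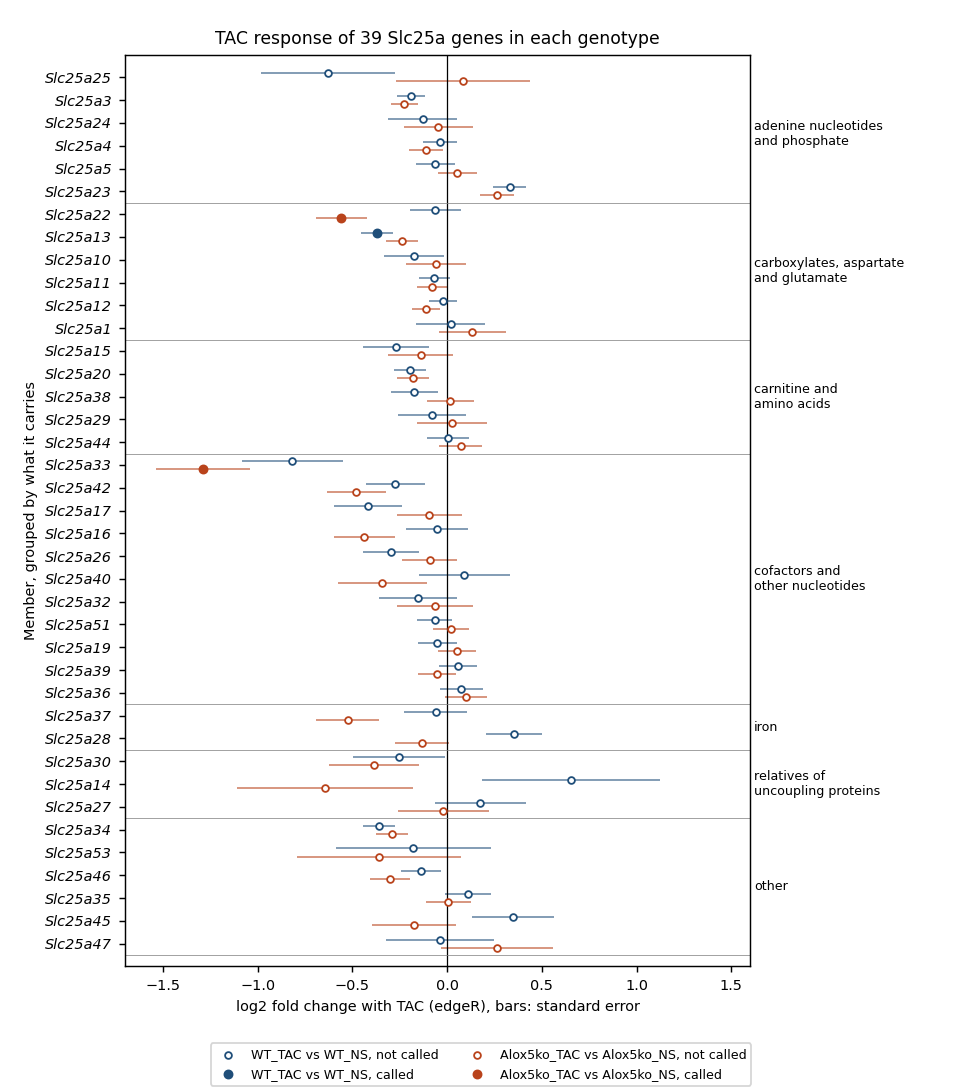
The log2 fold change with TAC of each Slc25a member in WT (blue) and Alox5ko (red), with standard errors, grouped by what the carrier moves; filled points were called at an adjusted p under 0.05. Slc25a33 lies farthest left in both genotypes, and Slc25a13 in WT and Slc25a33 and Slc25a22 in Alox5ko are filled.

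Among the carriers of adenine nucleotides and phosphate, Slc25a3 fell and Slc25a23 rose, and the other 4 were not called. Slc25a3 was at 322, 326 and 329 CPM in WT_NS and at 284, 290 and 283 in WT_TAC. In Alox5ko_NS it was at 330, 322 and 367 CPM and in Alox5ko_TAC at 309, 290 and 273. All 6 TAC libraries lay below all 6 NS libraries. The mean log2 fold change was -0.21 (SE 0.0521, adjusted p = 0.0245), with -0.19 in WT and -0.23 in Alox5ko, neither called (adjusted p = 0.280 and 0.140). Its call was lost without WT_NS replicate 2 or 3, WT_TAC replicate 1 or 3, or Alox5ko_TAC replicate 3, with adjusted p from 0.00285 to 0.0775 over all alternatives.

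Slc25a23, a calcium-activated carrier that exchanges ATP-Mg for phosphate, was at 31.4, 30.2 and 30.6 CPM in WT_NS and at 41.1, 38.0 and 36.7 in WT_TAC. The knockout values were 28.4, 28.4 and 27.8 CPM in Alox5ko_NS and 36.8, 29.9 and 34.8 in Alox5ko_TAC. The TAC libraries of each genotype lay above its NS libraries, while Alox5ko_TAC replicate 2 was below the wild-type NS libraries. The mean log2 fold change was 0.30 (SE 0.0620, adjusted p = 0.00875), a 1.23-fold rise. It was 0.33 in WT and 0.26 in Alox5ko, neither called by edgeR (adjusted p = 0.0911 and 0.152). DESeq2 called it in WT (adjusted p = 0.0453), and edgeR called it in Alox5ko without Alox5ko_TAC replicate 2 (adjusted p = 0.0470). Slc25a23 was the called member that moved up, and its 2 relatives with the same substrate, Slc25a24 and Slc25a25, had uncalled values. Slc25a25 varied widely within groups, at 13, 5.32 and 7.56 CPM in WT_TAC against 13, 14.3 and 12.5 in WT_NS.

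Slc25a4 was at 2767, 2909 and 3009 CPM in WT_NS and at 2815, 2933 and 2707 in WT_TAC, and its highest value, 3534, was in Alox5ko_NS replicate 3. The groups overlapped, and the mean log2 fold change with TAC was -0.08 (SE 0.0634, adjusted p = 0.569). Slc25a5 was also not called, at -0.00 (SE 0.0723, adjusted p = 0.987). Slc25a5 has processed copies in the mouse genome, and how the counting treated reads that fit several places is not given, so its level is uncertain.

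Among the carboxylate, aspartate and glutamate carriers, Slc25a13 fell and its paralog Slc25a12 was not called. Slc25a13 was at 42.8, 44.2 and 41.4 CPM in WT_NS and at 30.5, 36.1 and 32.6 in WT_TAC. In Alox5ko_NS it was at 41.5, 45.1 and 42.2 CPM and in Alox5ko_TAC at 38.3, 35.4 and 35.3. All 6 TAC libraries lay below all 6 NS libraries, and the mean log2 fold change was -0.31 (SE 0.0590, adjusted p = 0.00494). It was -0.37 in WT (SE 0.0836, adjusted p = 0.0427), and the Alox5ko value was -0.24 (SE 0.0831, adjusted p = 0.172), and the difference between them, 0.13 (SE 0.118), had an adjusted p of 0.9997. The call within WT was lost without any 1 of the 3 WT_NS libraries, WT_TAC replicate 1 or 3, Alox5ko_NS replicate 1 or Alox5ko_TAC replicate 3, with adjusted p from 0.00804 to 0.142 over all alternatives.

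Slc25a12 was at 116, 117 and 120 CPM in WT_NS and at 106, 124 and 117 in WT_TAC, which overlap. In Alox5ko its TAC libraries all lay below its NS libraries, with group means of 122.2 CPM without TAC and 113.2 with it. The mean log2 fold change of Slc25a12 over both genotypes was -0.07 (SE 0.0514, adjusted p = 0.530). Both genes encode the aspartate-glutamate exchanger of the malate-aspartate shuttle, and the ratio of their RPKM described the balance between them. Slc25a12 to Slc25a13 was 1.40, 1.37 and 1.50 in WT_NS and 1.81, 1.77 and 1.86 in WT_TAC. The knockout ratios were 1.53, 1.35 and 1.55 without TAC and 1.56, 1.64 and 1.64 with it. The TAC libraries lay above the NS libraries of their genotype in both cases, narrowly in Alox5ko, and the ratio was not tested. Slc25a11, the partner of these carriers in the shuttle, was at 340 to 408 CPM over 12 libraries with overlapping groups (mean log2 fold change -0.07, SE 0.0571, adjusted p = 0.531).

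**Figure D3:**
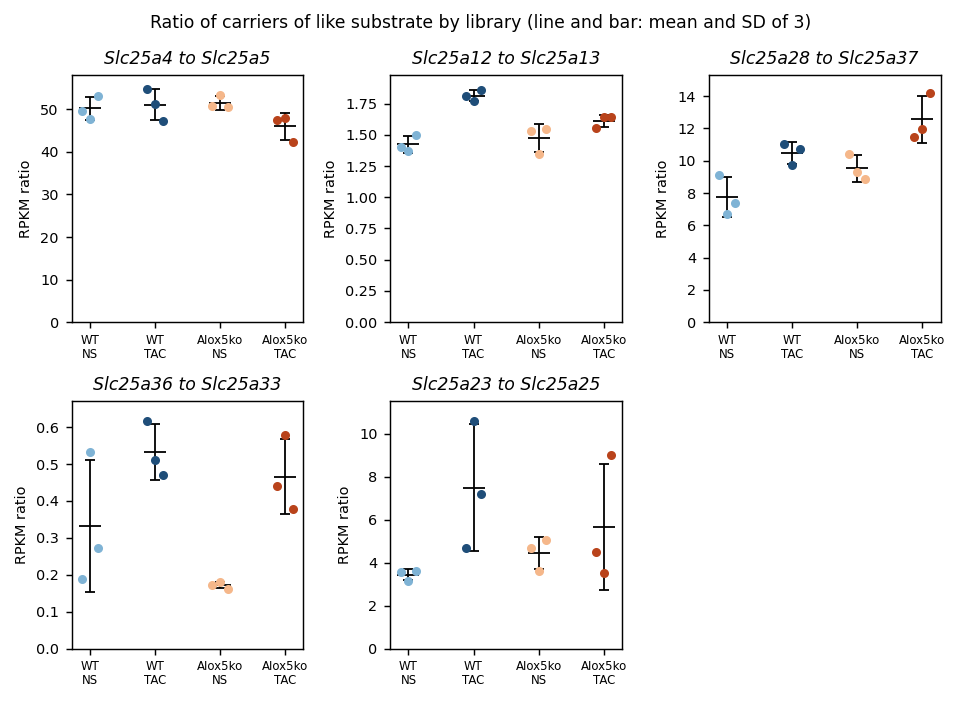
RPKM ratio of 5 pairs of carriers of like substrate in each library, with mean and SD of 3. The mean of Slc25a12 to Slc25a13 was 1.42 in WT_NS and 1.81 in WT_TAC, and that of Slc25a4 to Slc25a5 was 50.2 and 51.1.

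Slc25a22, a glutamate carrier, fell in Alox5ko. It was at 7.23, 8.12 and 9.83 CPM in WT_NS and at 7.80, 8.49 and 7.80 in WT_TAC. Its values in Alox5ko_NS were 9.31, 9.03 and 9.30 CPM, and those in Alox5ko_TAC were 6.37, 7.13 and 5.21. Alox5ko_TAC was the lowest group, without overlap with Alox5ko_NS or WT_TAC, and the wild-type groups overlapped. The log2 fold change was -0.56 in Alox5ko (SE 0.135, adjusted p = 0.0424) and -0.06 in WT (SE 0.134, adjusted p = 0.917). The difference between the genotypes, -0.50 (SE 0.190), was not called (adjusted p = 0.839 by edgeR). The call in Alox5ko was lost without WT_NS replicate 2, WT_TAC replicate 2 or 3, any 1 of the 3 Alox5ko_NS libraries, or Alox5ko_TAC replicate 1 or 3, with adjusted p from 0.00435 to 0.183 over all alternatives.

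The carriers of cofactors and of nucleotides other than adenine nucleotides held the largest change in the family. Slc25a33, which exchanges pyrimidine nucleotides and is known for supplying mitochondrial DNA and RNA synthesis, was at 12.4, 5.14 and 8.21 CPM in WT_NS and at 4.60, 4.97 and 4.98 in WT_TAC. In Alox5ko_NS it was at 14.2, 16.5 and 15.4 CPM and in Alox5ko_TAC at 6.32, 4.80 and 7.75. The TAC libraries lay below the NS libraries of their genotype, WT_NS was widely spread, and WT_NS replicate 2 reached down to the TAC level. The mean log2 fold change was -1.05 (SE 0.181, adjusted p = 0.00695), a fold of 0.482. It was -1.29 in Alox5ko (SE 0.248, adjusted p = 0.0298) and -0.82 in WT (SE 0.265, adjusted p = 0.215), and the difference, -0.47 (SE 0.363), was not called (adjusted p = 0.9997).

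The Slc25a33 call within Alox5ko was lost without any 1 of the 3 Alox5ko_NS libraries or without Alox5ko_TAC replicate 1 or 2 (adjusted p at most 0.128). Within WT it was called without WT_NS replicate 2, by DESeq2 (adjusted p = 0.0336) and with no count filter (adjusted p = 5.27e-05). The adjusted p within WT ranged from 5.27e-05 to 0.443 over all alternatives. In the wild type without TAC, the library lowest in Slc25a33 was highest in Acta1, skeletal alpha-actin, a gene raised in overloaded heart: WT_NS replicate 2 had 323 CPM of library total (without TMM factors) of Acta1 and the other 2 had 106 and 118. It was not highest in Nppa, atrial natriuretic peptide, which was at 281, 234 and 151 CPM in WT_NS replicates 1, 2 and 3. On the same scale after TAC, Acta1 was at 281 to 1650 CPM and Nppa at 282 to 1268. Of the TAC libraries, Alox5ko_TAC replicate 2 was lowest in both. Within Alox5ko_TAC this replicate was also lowest in Slc25a33 (4.80 against 6.32 and 7.75 CPM, with TMM factors). The opposite order of Slc25a33 and Acta1 seen in WT_NS replicate 2 was therefore not found there. Nppa was listed with the atrial muscle genes, and another of these, Myl4, was uneven among libraries. Nppa was at 1268, 759 and 620 CPM in WT_TAC and at 832, 282 and 1223 in Alox5ko_TAC. Myl4 was at 51.8, 6.08 and 15.5 CPM in WT_TAC and at 7.89, 1.67 and 76.9 in Alox5ko_TAC. Without TAC, Myl4 was at 1.32 to 62.1 CPM. Atrial tissue as a source of Nppa was not tested, nor was the part of Acta1 and Nppa in the result. Slc25a33 shares 281 exon bases (14.9%) with Gm13068 on the opposite strand, and since the sources do not say whether counting used strand, their reads may not be separated. Gm13068 was at 0.70 to 3.34 CPM and was not called (mean log2 fold change -0.61, adjusted p = 0.117).

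Slc25a36, the second pyrimidine nucleotide carrier, was not called, at 11.4 to 15.1 CPM over 12 libraries. The RPKM ratio of Slc25a36 to Slc25a33 was 0.163 to 0.179 in Alox5ko_NS and 0.379 to 0.579 in Alox5ko_TAC, and 0.189 to 0.534 in WT_NS and 0.471 to 0.616 in WT_TAC. The ratio separated the treatments in Alox5ko and overlapped in WT, and it was not tested. Slc25a42, the carrier of coenzyme A and ADP, had the next lowest adjusted p of this group (mean log2 fold change -0.38, adjusted p = 0.0572), with overlapping groups in each genotype. For the mean TAC effect it was called by DESeq2, with no count filter and without WT_TAC replicate 3, Alox5ko_NS replicate 3 or Alox5ko_TAC replicate 2. Within Alox5ko it was called with no count filter and without Alox5ko_NS replicate 3. Slc25a39 was close to 0 (log2 fold change 0.00, SE 0.0708).

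**Figure D4:**
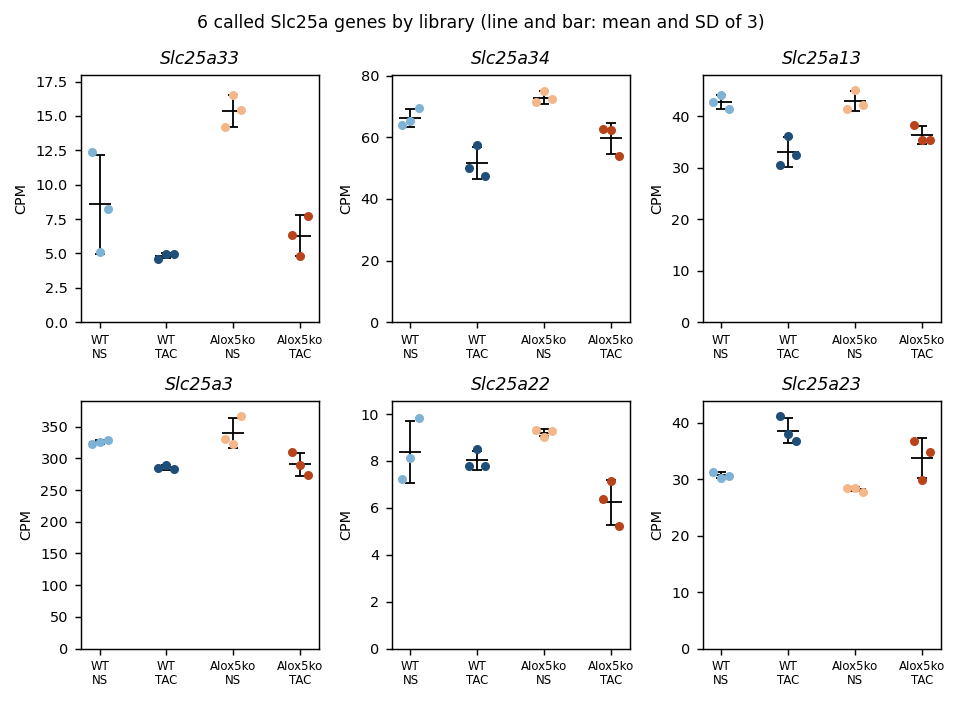
CPM in each library of the 6 Slc25a members called in any comparison, with mean and SD of 3 libraries; the axes start at 0. Slc25a33 is the gene with the largest fold change with TAC, while Slc25a23 alone is higher after TAC.

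Among the carnitine and amino acid carriers none of 5 was called. Slc25a20 came closest, at 68.3, 72.3 and 71.7 CPM in WT_NS and at 58.5, 64.6 and 62.1 in WT_TAC. Knockout libraries had 80.4, 74.9 and 77.2 CPM without TAC and 75.0, 71.2 and 59.1 with it. The wild-type groups did not overlap and the knockout groups did, narrowly, and the mean log2 fold change was -0.19 (SE 0.0603, adjusted p = 0.0791). Without Alox5ko_TAC replicate 1, Slc25a20 was called for the mean TAC effect.

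The mitoferrins, which bring iron into the matrix, were not called with TAC. Slc25a37 (mitoferrin-1) was at 3.32 to 3.82 CPM in WT_NS and 2.87 to 4.07 in WT_TAC, while the knockout had 3.78 to 4.18 CPM without TAC and 2.49 to 2.97 with it. It was lowest in Alox5ko_TAC, with a log2 fold change of -0.53 in Alox5ko (SE 0.168, adjusted p = 0.132) and -0.06 in WT. Slc25a28 (mitoferrin-2) was at 5.70 to 8.77 CPM in WT_NS and 7.75 to 9.95 in WT_TAC, while the knockout had 8.99 to 9.91 without TAC and 7.85 to 8.96 with it. Its log2 fold change was 0.35 in WT and -0.13 in Alox5ko, and the difference, -0.49 (SE 0.206), was not called (adjusted p = 0.878). Mitoferrin-1 is also abundant in erythroid cells, and the 7 erythroid genes in the table summed to 154 to 348 CPM over 12 libraries with overlapping groups. Among relatives of the uncoupling proteins, Slc25a30 had a mean log2 fold change of -0.32 (SE 0.170, adjusted p = 0.320), Slc25a14 was read at 4 to 23 counts, and none of 3 was called.

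Of the 6 members with other or unsettled roles, Slc25a34 fell. It was at 64.0, 65.2 and 69.6 CPM in WT_NS and at 50.0, 57.4 and 47.5 in WT_TAC. In Alox5ko_NS it was at 71.3, 75.1 and 72.3 CPM and in Alox5ko_TAC at 62.6, 62.5 and 53.8. All 6 TAC libraries lay below all 6 NS libraries. The mean log2 fold change was -0.32 (SE 0.0605, adjusted p = 0.00380), with -0.36 in WT (adjusted p = 0.0561) and -0.29 in Alox5ko (adjusted p = 0.103). Within WT it was called by DESeq2 (adjusted p = 0.0137), with no count filter (0.00876) and without WT_TAC replicate 2, Alox5ko_NS replicate 3 or Alox5ko_TAC replicate 2. Within Alox5ko it was called with no count filter (adjusted p = 0.0443). Slc25a46 was at -0.22 for the mean TAC effect (SE 0.0742, adjusted p = 0.0970). It was called for this effect with no count filter, with the replicate block over all groups and without WT_TAC replicate 2.

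Slc25a34 (chr4:141618824-141623821, minus strand) has Tmem82 as its neighbor, 190 bases away on the same strand with no shared exon base. Tmem82, which encodes a transmembrane protein, was at 37.9, 35.0 and 42.0 CPM in WT_NS and at 18.8, 17.2 and 19.4 in WT_TAC. Its knockout values were 41.8, 28.1 and 30.7 CPM without TAC and 32.0, 27.8 and 26.4 with it. The wild-type groups were far apart and the knockout groups overlapped. Its log2 fold change was -1.05 within WT (SE 0.129, adjusted p = 0.00263), and the Alox5ko value was -0.22 (adjusted p = 0.437). The difference between the genotypes, 0.83 (SE 0.179), was not called (adjusted p = 0.509). Tmem82 was added beside Slc25a34 after its values were seen.

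No member was called for genotype by edgeR with the count filter and all 12 libraries, while Slc25a33 was called without TAC and for the mean with no filter or without WT_NS replicate 1. Without TAC, 0 of 39 was called (beside 0.0386% of all genes) by edgeR and 0 by DESeq2. Of the 39, 2 had an unadjusted p under 0.05, beside 6.36% of all genes. Under TAC, 0 of 39 was called (beside 0.109%) by edgeR and 0 by DESeq2, and 4 of 39 had an unadjusted p under 0.05 (beside 8.49%). For the mean over both treatments 0 was called (beside 0.154%) by edgeR, and DESeq2 called 1, Slc25a33. An unadjusted p under 0.05 was found for 4 of 39, beside 9.77% of all genes. For the difference in TAC response, 0 of 39 was called (beside 0% of all genes) by edgeR and 0 by DESeq2. Here 2 of 39 were at an unadjusted p under 0.05, beside 5.38% of all genes. Over all genes the edgeR test called 0 for this difference, with 836 at an unadjusted p under 0.05, and DESeq2 called 1.

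The largest genotype value was that of Slc25a33. Alox5ko_NS lay above WT_NS in every library (14.2 to 16.5 against 5.14 to 12.4 CPM), with a log2 fold change of 0.85 (SE 0.241, adjusted p = 0.578), and the value under TAC was 0.37 (SE 0.272). The mean over both treatments was 0.61 (SE 0.181, adjusted p = 0.272). Slc25a28 was higher in Alox5ko_NS without overlap (log2 fold change 0.45, SE 0.146, adjusted p = 0.591). The groups without TAC did not overlap for 7 members, 5 higher and 2 lower in Alox5ko_NS (17.9%, beside 13.6% of all genes). Under TAC this held for 4 members, 2 higher and 2 lower (10.3%, beside 12.3%). The median log2 genotype value of the members was 0.06 without TAC and 0.03 under TAC, against 0.00 and -0.01 over all genes. For the mean over both treatments, 26 of 39 members had a positive value and 13 a negative one, also with RLE factors and DESeq2, while 51.2% of all genes were negative. The split was 28 positive and 11 negative without TAC, and closer to even, 22 and 17, under TAC. Markers of some other cell types also had values mostly of 1 sign. The macrophage sums overlapped, at 95.8 to 143 CPM in the wild-type libraries and 99.8 to 150 in the knockout libraries. For the mean genotype effect the 8 smooth muscle and pericyte genes were all negative (median log2 fold change -0.46). Of these, 7 had an unadjusted p under 0.05, beside 9.77% of all genes. Negative values were also found for 7 of 8 endothelial genes (median -0.18) and all 8 fibroblast genes (median -0.20). The 13 mitochondrially encoded genes were all positive for this mean (median 0.11). Their group means were all higher in Alox5ko_NS than in WT_NS, but under TAC they went both ways. For example, mt-Nd5 was at 28080 CPM in WT_TAC and 24800 in Alox5ko_TAC, and mt-Nd2 at 19351 and 19861. None of the smooth muscle, pericyte, endothelial, fibroblast or mitochondrially encoded genes was called by edgeR, and their part in the members' values was not tested.

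**Figure D5:**
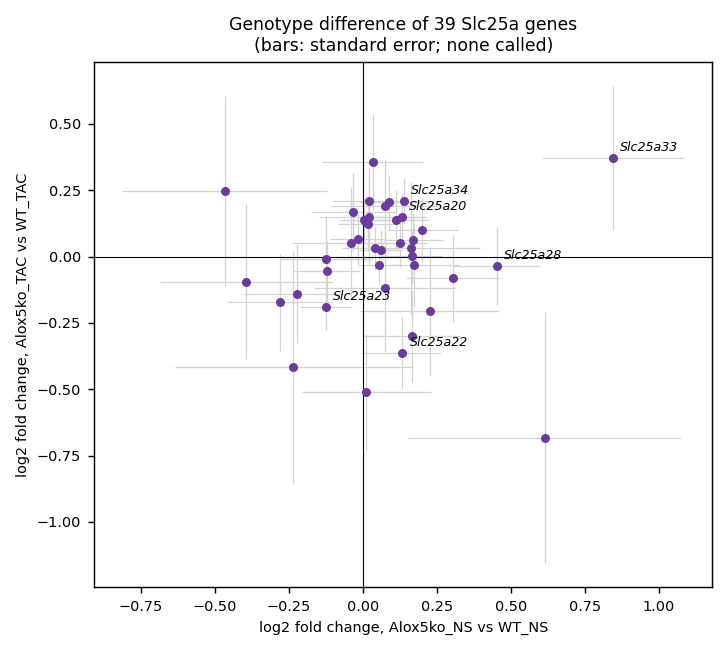
The log2 fold change of Alox5ko_NS against WT_NS (horizontal) and of Alox5ko_TAC against WT_TAC (vertical) for the 39 members, with standard errors; the 2 axes share no library. Most points lie close to 0, and Slc25a33 is farthest right, at 0.85.

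Genes that act beside the carriers were read from lists. Of 15 genes for the import of carriers, 1 was called for the mean TAC effect (6.67%, beside 5.1% of all genes): Agk, a subunit of the TIM22 insertion complex, fell by 0.49 on the log2 scale (adjusted p = 0.00270). It was at 8.38 to 9.52 CPM in WT_NS and 6.43 to 6.65 in WT_TAC. The knockout had 8.39 to 9.42 CPM without TAC and 5.58 to 7.13 with it, and neither genotype overlapped. Of 35 enzymes that make or use what the carriers move, 2 were called, both lower (5.71%, near the 5.1% of all genes), and 29 of the 35 values were negative (median -0.08), beside 49.8% of all genes. The called enzymes were Nadk2, the mitochondrial NAD kinase (-0.46, adjusted p = 0.00130), and Ak4, a mitochondrial adenylate kinase (-0.41, adjusted p = 0.00645).

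Of 11 nuclear regulators of mitochondrial genes, 1 was called (9.09%, beside 5.1% of all genes), Ppara, which was lower, a nuclear receptor for fatty acids (-0.34, adjusted p = 0.0171). Of 13 mitochondrially encoded genes 2 were called lower (15.4%, beside 5.1% of all genes), mt-Nd4l (-0.24, adjusted p = 0.0348) and mt-Nd5 (-0.21, adjusted p = 0.0487), both subunits of complex I. The means of mt-Nd4l were 10573 CPM in WT_NS and 10362 in WT_TAC, against 12703 in Alox5ko_NS and 9355 in Alox5ko_TAC. Those of mt-Nd5 were 28119 and 28080 in the wild type, against 33203 and 24800 in the knockout. The 13 genes took 17.7% to 20.7% of the counts of Alox5ko_NS and 14.1% to 16.2% in Alox5ko_TAC. The wild-type shares, 15.9% to 17.5% without TAC and 15.3% to 16.8% with it, overlapped. Ucp2 and Ucp3, uncoupling proteins of the same family with other symbols, were not called (mean log2 fold change -0.36 and -0.59, adjusted p = 0.10 and 0.0920).

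Markers of activated fibroblasts were higher with TAC beside these results (median log2 fold change 1.90 for the mean TAC effect). Of 7 tested genes 3 were called higher, beside 451 of all 15542 genes. The 8 genes of the list summed to 53.4 to 84.3 CPM in WT_NS and 122 to 387 in WT_TAC. The knockout sums were 40.6 to 57.5 CPM without TAC and 83.2 to 230 with it. The 10 cardiomyocyte markers had a median log2 fold change of 0.02 for the mean TAC effect. Of 8 general fibroblast genes 1 was called higher (beside 451 of 15542 genes). They summed to 514 to 592 CPM in WT_NS and 497 to 914 in WT_TAC, against 383 to 433 without TAC and 465 to 555 with TAC in the knockout. The part of these shifts in the values of the carriers was not tested.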

How the data were processed

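RNA of left ventricle was measured in 12 libraries, 3 in each of 4 groups, with polyadenylated RNA and directional 150-bp read pairs per the labels' protocols. The authors deposited raw counts per gene, and deposited RPKM computed from them with a gene length, per the file headers. HISAT2, DESeq2, mm10 and GRCh38 are named without versions or roles in the submitters' processing notes. The counting program, annotation and strand setting are not given in the sources used here.

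Counts were tested with edgeR 4.0.16 in R 4.3.3 (limma 3.58.1): filterByExpr (minimum count 10, minimum total 15), TMM scaling, a robust quasi-likelihood fit with 1 coefficient per group over 12 libraries, 7 contrasts, and Benjamini-Hochberg adjustment over 15542 genes. Calls needed an adjusted p below 0.05. The script was tested on simulated data. Differences are log2 fold changes with their standard error (SE), and levels of 1 gene across libraries are TMM-scaled CPM, except that cell markers, Acta1 and Nppa are in CPM of the library total. Recomputed RPKM equalled the deposited RPKM within 0.1% for 336840 of 336840 values. The common biological coefficient of variation was 0.107, TMM factors ran from 0.945 to 1.035, and the chi-square per gene between libraries of 1 group lay between 5.39 and 31.8, which is above sampling noise for each pair. Same-numbered WT_NS and WT_TAC libraries deviated together (correlations 0.152 to 0.194), which is a hint from the data and not from the labels; no other pair of groups had all 3 above 0.1. An exact permutation test of 3 against 3 cannot go below 0.1 and was not used.

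Named members are those called in any contrast, the 10 highest by mean RPKM, and in each role group those with the smallest p for TAC and for genotype; other members appear beside a relative. Members and lists were chosen with earlier results of these data known. Positions are from GENCODE M21 (GRCm38, mm10), where 38 of 47 family rows had the same start and end, and promoters from RefSeq (GRCm38.p6). Alternatives were DESeq2 1.42.0, RLE size factors, no count filter, the replicate number as a block (over all groups, and, added after seeing the data, within WT), and leaving out each library. Figures were drawn with matplotlib 3.10.9.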

Additional observations from a re-analysis of the deposited data

How the results depend on the processing

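Slc25a13, Slc25a23, Slc25a33 and Slc25a34 were called for the mean TAC effect in all 12 fits that left out 1 library, and the count of members ran from 4 to 7. It was 5 with RLE factors, 6 with DESeq2 and 8 with no filter. Within WT, where 1 member was called, DESeq2 called 4, no filter gave 3, and leaving out 1 library gave 0 to 2. Within Alox5ko, where 2 were called, no filter gave 4 and leaving out 1 library gave 0 to 2. For genotype without TAC no filter called 1 and leaving out 1 library gave 0 to 1, the 1 being Slc25a33 without WT_NS replicate 1. For the mean genotype effect DESeq2 and no filter each called 1 (Slc25a33), and leaving out 1 library gave 0 to 1, again without WT_NS replicate 1. No member was called for genotype under TAC or for the difference in TAC response in any of these fits. The value of Slc25a22 for TAC in WT ranged from -0.16 (without WT_NS replicate 1) to 0.06 when 1 library was left out, and it turned from -0.0632 to 0.0648 without WT_NS replicate 3, uncalled both times.

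Over all genes, DESeq2 called 288 (TAC in WT, where edgeR called 119), 401 (TAC in Alox5ko, 209), 23 (genotype without TAC, 6), 55 (genotype under TAC, 17), 1 (difference in TAC response, 0) and 88 (mean genotype, 24). No filter gave 538, 756, 116, 252, 83 and 348 for the same comparisons and 1331 for the mean TAC effect (792). Leaving out 1 library gave 17 (without WT_NS replicate 1) to 182 for TAC in WT, 60 (without Alox5ko_TAC replicate 1) to 379 (without Alox5ko_TAC replicate 2) for TAC in Alox5ko, 2 to 7 for genotype without TAC, and 10 to 28 for genotype under TAC. The range was 0 to 1 for the difference, 407 (without WT_NS replicate 3) to 990 for the mean TAC effect, and 15 to 44 for the mean genotype effect. The causes were not tested.

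Of 18 pairs of libraries with the same replicate number, 7 had deviations correlated over 0.1 (range -0.22 to 0.24), among them all 3 of WT_NS with WT_TAC. With the replicate block within WT, added after seeing the data, 1 member (Slc25a13, adjusted p = 0.0441) and 132 genes were called for TAC in WT, and the same 5 members for the mean TAC effect. With the replicate block over all groups 1 member was called in WT, 1 in Alox5ko (Slc25a33, while Slc25a22 had an adjusted p of 0.0609) and 6 for the mean TAC effect. Members with few counts, such as Slc25a14 and Slc25a53, limit what could be detected at this depth.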
